A study of Mus musculus with 40 samples.

Results

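The genes described are the 8 members of the suppressor of cytokine signalling family, Cish, Socs1, Socs2, Socs3, Socs4, Socs5, Socs6 and Socs7, chosen by their gene symbols from the 22865 genes of the authors' expression table. Where a gene had several RefSeq transcripts, the one with the greatest average RNA-Seq level stood for it. All 8 were in the table, with 11 transcripts in all, of which 4 belonged to Socs2. The cells were macrophages that thioglycollate broth had drawn into the peritoneal cavity of C57BL6/J and BALBc/J mice, both inbred strains without an engineered allele named in the labels. They were left without treatment or received 100 ng/ml of Kdo2-lipid A (KLA), a defined lipid A preparation that activates Toll-like receptor 4. RNA-Seq of polyadenylated RNA gave 1 library in each strain for untreated cells, for KLA of 1 hr and for KLA of 4 hr. GRO-Seq, which measures RNA still attached to the polymerase, gave 1 in each strain for untreated cells and for KLA of 1 hr, the treatment time of all ChIP-Seq too. ChIP-Seq of PU.1, C/EBPa, H3K4me2 and H3K27Ac gave 1 list per strain and treatment, and the NF-kB subunit p65 after KLA gave 2 lists per strain. Nothing in the labels ties a library to its own animal or culture, so a p-value here reflects how far the sequenced libraries spread, and that spread may be technical.

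SOCS proteins are inhibitors of cytokine receptors that signal through JAK kinases and STAT transcription factors. Each has an SH2 domain, which binds phosphorylated tyrosines, and a SOCS box, which recruits elongins and a cullin to form a ubiquitin ligase. CIS (the product of Cish), SOCS1, SOCS2 and SOCS3 are best known as products of STAT target genes that close a negative feedback loop, while SOCS4 to SOCS7 are better known for acting on growth factor and insulin signalling. In macrophages SOCS3 limits signalling from the gp130 chain of the interleukin 6 receptor, and SOCS1 limits the response to interferons.

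The promoters of Cish, Socs3 and Socs1, the members with the largest rises in transcript level, are shown because they hold matches to STAT or interferon response motifs. They come from RefSeq on build GRCm38.p6, each from 250 bases before to 50 bases from the start of transcription, read 5′ to 3′ on the gene's strand. These coordinates are not those of the deposited files, which use build mm9. Capitals mark matches to the STAT motif TTCNNNGAA or to the interferon response motif GAAANNGAA, searched on both strands.
Cish promoter (chr9:107296409-107296708, plus strand): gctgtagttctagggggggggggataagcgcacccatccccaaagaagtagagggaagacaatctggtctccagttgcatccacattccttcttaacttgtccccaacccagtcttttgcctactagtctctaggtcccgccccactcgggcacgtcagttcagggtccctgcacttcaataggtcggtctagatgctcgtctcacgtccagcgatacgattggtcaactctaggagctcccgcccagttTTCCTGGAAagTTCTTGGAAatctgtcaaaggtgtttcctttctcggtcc
Socs3 promoter (chr11:117969317-117969616, minus strand): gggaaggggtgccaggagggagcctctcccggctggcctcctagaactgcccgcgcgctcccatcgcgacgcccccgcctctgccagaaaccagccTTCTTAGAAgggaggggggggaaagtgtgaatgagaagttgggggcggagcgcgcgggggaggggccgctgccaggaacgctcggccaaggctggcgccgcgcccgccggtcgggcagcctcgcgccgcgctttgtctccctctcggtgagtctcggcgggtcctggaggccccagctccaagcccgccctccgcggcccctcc
Socs1 promoter (chr16:10785487-10785786, minus strand): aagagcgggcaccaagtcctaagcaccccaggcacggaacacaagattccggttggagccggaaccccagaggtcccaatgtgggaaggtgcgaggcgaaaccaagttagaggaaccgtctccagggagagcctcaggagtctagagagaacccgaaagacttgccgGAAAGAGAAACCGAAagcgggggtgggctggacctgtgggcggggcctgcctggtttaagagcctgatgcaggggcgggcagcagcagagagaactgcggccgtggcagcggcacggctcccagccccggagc
The Cish window held 2 STAT matches, TTCCTGGAA at 0 to 8 and TTCTTGGAA at 11 to 19, counted from the start base as 0. The Socs3 window held 1 STAT match, TTCTTAGAA, at -154 to -146. The Socs1 window held 2 overlapping matches to GAAANNGAA, GAAAGAGAA at -83 to -75 and GAAACCGAA at -77 to -69. Of 32851 promoters of the same length, 8.30% held the STAT motif and 8.56% the interferon response motif. The windows shown were picked for their matches, so these shares do not test whether matches are frequent in the family. GGGNNTTTC (NF-kB, 4.36% of promoters), TTGCNNAA (C/EBP, 10.8%), GAGGAAG (PU.1, 13.6%) and TGANTCA (AP-1, 7.81%) matched none of these 3 windows. The Socs4 window was also in the RefSeq table and matched none of the 6 motifs. No window of Socs2, Socs5, Socs6 or Socs7 was read for motifs. Members that rose are thus not compared with the others. A match is a description of letters, and the absence of one says only that these letters are not in the window.

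Levels are given as exon tags (reads) per 10 M tags of the library, where M stands for mega. Depth ranged from 17.0 to 20.3 M tags in RNA-Seq, with 88.7 to 90.6% of them in exons of the genes used. In GRO-Seq it ranged from 39.4 to 48.3 M tags, with 7.39 to 9.83% in exons. Of the macrophage markers, 8 of 9 were in the table and all 8 were detected, with summed RNA-Seq levels of 76034 to 102413 tags per 10 M. None of the 6 T and NK cell markers and none of the 5 neutrophil markers in the table reached 20 tags per 10 M in 2 libraries, and Ngp and Epx had 0 tags. Of the 5 B cell markers 2 reached it, with sums of 37.0 to 71.3 tags per 10 M. All 8 mesothelial and fibroblast markers were detected, with sums of 2331 to 2881 tags per 10 M without treatment, 1196 to 1995 after KLA for 1 hr and 1179 to 3077 after KLA for 4 hr. Mast cell and eosinophil markers summed to 145 to 147 tags per 10 M without treatment and 81.7 to 87.8 after 4 hr. The part of other cell types in the results below was not tested. In bulk samples, fewer cells of a type and less RNA per cell cannot be told apart.

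The KLA comparisons ask how the family responded to Toll-like receptor 4 activation. Socs3 and Cish rose within 1 hr, and by 4 hr Socs1, Socs2, Socs3 and Cish were higher and Socs6 was lower than without treatment. A gene was called when limma's adjusted p (Benjamini-Hochberg over all genes tested) was under 0.05 and the fitted change was at least 1 on the log2(tags per 10 M + 10) scale, with the strains as the 2 replicates. This scale understates the change of low genes. After 1 hr, 2 of 8 members were called in RNA-Seq, against 3.25% of all 10692 genes tested. After 4 hr, 5 of 8 were called (4 higher and 1 lower), against 29.4% of all genes (866 higher and 2275 lower). The background at this time was thus high, mostly through falls. Between 1 and 4 hr, 6 of 8 were called (5 higher and 1 lower), against 22.2% of all genes (927 higher and 1446 lower). In GRO-Seq after 1 hr, 2 of the 6 members that passed the filter on low values were called, both higher. The share of all 9110 genes was 19.8% (393 higher and 1410 lower). With no filter on low values 0 of 8 members were called after 1 hr in RNA-Seq (4 genes in all) and 0 in GRO-Seq (0 genes in all), where 4 members in RNA-Seq and 3 in GRO-Seq had an unadjusted p under 0.05 in the filtered fit. The comparisons of 1 and 4 hr share the untreated libraries, so they are not independent. The median of all genes tested moved by -0.21 (RNA-Seq, 1 hr), -0.47 (RNA-Seq, 4 hr) and -0.34 (GRO-Seq, 1 hr), and the values below are not shifted for it.

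**Figure D1:**
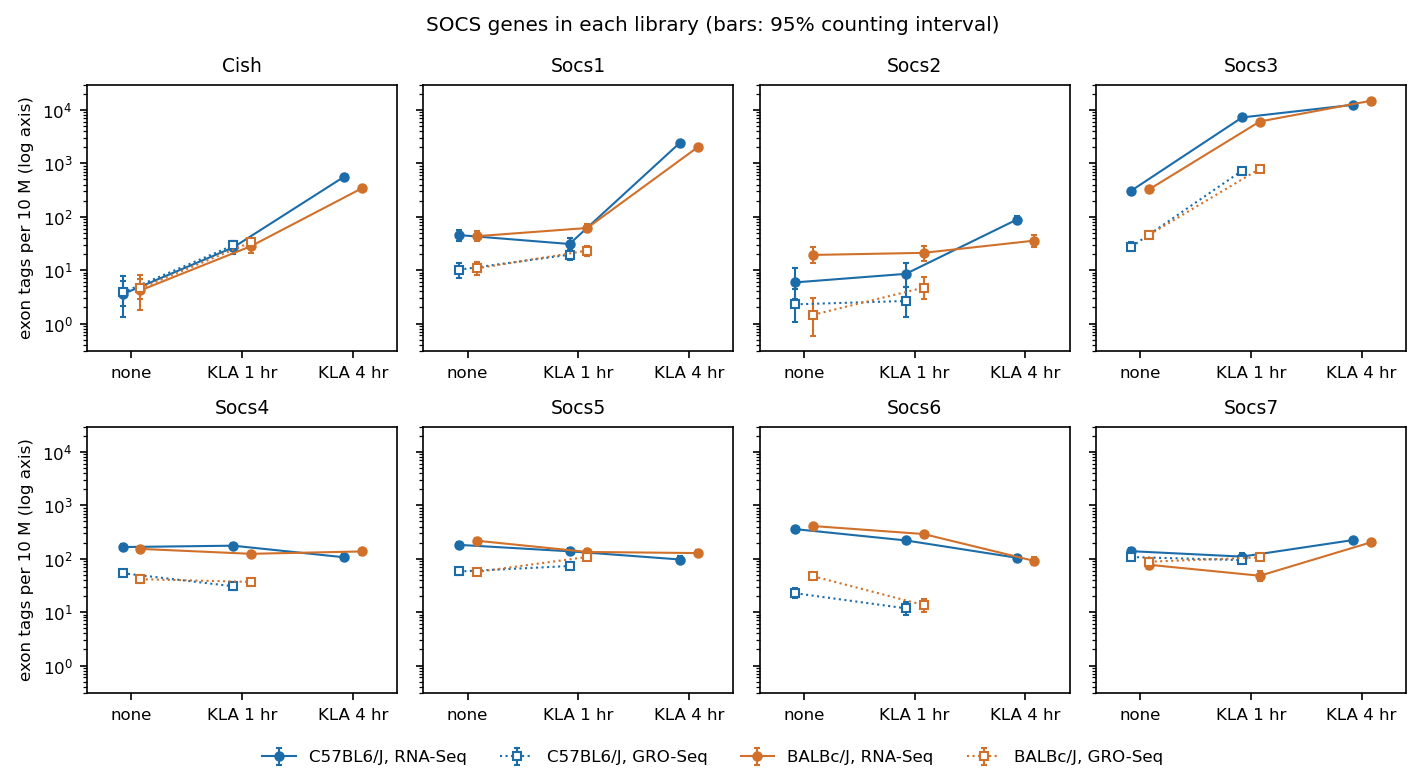
Exon tags per 10 M (log axis) of each SOCS gene by treatment, with filled circles for RNA-Seq and open squares for GRO-Seq, 1 library per point and bars for the 95% counting interval. Socs3 and Cish are higher after 1 hr in both strains, Socs1 is high only in the libraries of 4 hr (2458 and 2020 tags per 10 M), and Socs6 declines to 105 and 90.9.

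Socs3 was by far the most abundant member after KLA. The gene lies on the minus strand of mm9 chromosome 11, from 117827400 to 117830680. Its RNA-Seq levels in C57BL6/J were 309 tags per 10 M without treatment, 7244 after 1 hr and 12470 after 4 hr. In BALBc/J they were 326, 6081 and 14830. Each treated library was far above each untreated one, and the treated times did not overlap either. Relative to no treatment, Socs3 rose by a fitted 4.34 ± 0.18 (SE, n = 2 strains; limma adjusted p = 7.96e-06) after 1 hr and by 5.38 ± 0.18 (limma adjusted p = 1.04e-06) after 4 hr. Between 1 and 4 hr it rose by a further 1.03 ± 0.18 (limma adjusted p = 0.00259), which was 1.72-fold in C57BL6/J and 2.44-fold in BALBc/J. This last change sat just above the fold threshold and fell under it when the BALBc/J library of 1 hr (0.83) or of 4 hr (0.86) was left out.

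Nascent Socs3 RNA rose as well. GRO-Seq levels were 27.4 tags per 10 M without treatment and 730 after KLA in C57BL6/J. The BALBc/J levels were 46.0 and 792. The fitted change of 4.07 ± 0.32 (limma adjusted p = 1.71e-33) was set beside the RNA-Seq change of the same hour in 1 model over both assays. The difference was -0.27 ± 0.33 (GRO-Seq minus RNA-Seq, limma adjusted p = 0.653). This comparison depends on the pseudocount, since the difference was -0.95 with a pseudocount of 50 (adjusted p = 0.00502, range over the alternatives 0.00502 to 0.967), still under the fold threshold, and -0.04 with a pseudocount of 2. Residual degrees of freedom in GRO-Seq were 1 before moderation and the prior was infinite, so the GRO-Seq test borrows its spread from all genes together. The model over both assays had 2 and also an infinite prior, so its test borrows in the same way.

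Cish was nearly undetected without treatment and well detected after 4 hr. The gene lies on the plus strand of mm9 chromosome 9, from 107199019 to 107204292. Without treatment its RNA-Seq level was 3.53 tags per 10 M in C57BL6/J (6 tags, exact Poisson 95% interval 1.30 to 7.69) and 4.16 in BALBc/J (8 tags, 1.80 to 8.20). After 1 hr it was 26.6 and 28.1 tags per 10 M. After 4 hr it was 559 and 339. The strains overlapped closely at the first times, and all treated libraries were above the counting intervals of the untreated ones. These intervals cover counting error only.

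The ratio of Cish tags after 1 hr to no treatment was 7.53 in C57BL6/J and 6.75 in BALBc/J. On the fitted scale Cish rose by 1.43 ± 0.24 (limma adjusted p = 0.0166) after 1 hr. The call was lost without the untreated C57BL6/J library, where the fitted change was 1.24 but missed the p threshold. It was also lost with no strain term (adjusted p = 0.0789, range over the alternatives that kept all libraries 0.0032 to 0.334) and with a pseudocount of 50 (0.52). After 4 hr the ratio of tags was 158 in C57BL6/J and 81.5 in BALBc/J, and the fitted change was 5.01 ± 0.24 (limma adjusted p = 4.46e-06). The rise from 1 to 4 hr was 3.58 ± 0.24 (limma adjusted p = 2.7e-05). GRO-Seq levels of Cish were 3.81 and 4.55 tags per 10 M without treatment and 29.1 and 33.1 after KLA, in C57BL6/J and BALBc/J. Nascent Cish RNA rose by a fitted 1.53 ± 0.23 (limma adjusted p = 4.78e-10; 0.58 with a pseudocount of 50, under the fold threshold), which differed from the RNA-Seq change by 0.10 ± 0.29 (limma adjusted p = 0.869).

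Socs1 rose between 1 and 4 hr, by a fitted 5.37 ± 0.27 (limma adjusted p = 7.87e-06). It lies on the minus strand of mm9 chromosome 16, from 10783901 to 10785629. RNA-Seq levels in C57BL6/J were 45.4 tags per 10 M without treatment, 30.9 after 1 hr and 2458 after 4 hr. In BALBc/J they were 43.2, 61.6 and 2020. The 1 hr values lay on opposite sides of the untreated ones in the strains, and Socs1 was not called at 1 hr (limma adjusted p = 0.993). From no treatment to 4 hr Socs1 also rose by 5.37 ± 0.27 (limma adjusted p = 4.89e-06), a ratio of tags of 54.2 in C57BL6/J and 46.8 in BALBc/J.

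GRO-Seq levels of Socs1 were 10.2 tags per 10 M without treatment and 19.5 after KLA in C57BL6/J. In BALBc/J they were 10.8 and 23.2. Only 1 of the 4 libraries reached 20 tags per 10 M, so Socs1 did not enter the GRO-Seq test. Its ratio of nascent tags was 1.92 in C57BL6/J and 2.16 in BALBc/J. In each strain the 95% counting intervals of the treated and untreated library did not overlap (15.5 to 24.2 against 7.26 to 13.8, and 18.8 to 28.4 against 8.04 to 14.1). These intervals leave out the variation between libraries, so they are no test of the treatment.

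Socs2, known as a brake on growth hormone signalling, was low in most libraries. It lies on the minus strand of mm9 chromosome 10, from 94874123 to 94879491, and its other 3 transcripts had similar levels in RNA-Seq (81.4 to 82.4 tags per 10 M in the C57BL6/J library of 4 hr). In C57BL6/J it had 5.89 tags per 10 M without treatment, 8.51 after 1 hr and 87.8 after 4 hr. In BALBc/J it had 19.3, 21.1 and 35.7. The rise after 4 hr was 14.9-fold in tags in C57BL6/J and 1.85-fold in BALBc/J. The fitted change of 1.63 ± 0.44 (limma adjusted p = 0.014) therefore averaged unequal responses, and without the C57BL6/J library of 4 hr it was 0.68, under the fold threshold (it was 0.80 with a pseudocount of 50). The change from 1 to 4 hr, 1.48 ± 0.44 (limma adjusted p = 0.0266), was likewise 0.52 without that library and 0.75 with a pseudocount of 50. The difference between the strains has no replicate in this design and was not tested. In GRO-Seq Socs2 had 1.45 to 4.70 tags per 10 M and did not enter the test.

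Socs6, which acts on insulin receptor and KIT signalling, was the member that fell. It lies on the minus strand of mm9 chromosome 18, from 89037271 to 89063599. RNA-Seq levels in C57BL6/J were 359 tags per 10 M without treatment, 220 after 1 hr and 105 after 4 hr. In BALBc/J they were 410, 290 and 90.9. The 3 conditions did not overlap. The 1 hr change was not called (-0.58 ± 0.21, limma adjusted p = 0.153). After 4 hr Socs6 fell by 1.87 ± 0.21 (limma adjusted p = 0.000207), and the change was -1.44 once the libraries were centred on the median gene. From 1 to 4 hr the change was -1.29 ± 0.21 (limma adjusted p = 0.00168). GRO-Seq levels were 22.6 and 11.8 tags per 10 M in C57BL6/J and 47.2 and 13.6 in BALBc/J, without treatment and after KLA. The fitted GRO-Seq change of -0.93 ± 0.28 (limma adjusted p = 0.00505) passed the p threshold but not the fold threshold, and was -1.25 with a pseudocount of 2, -0.42 with a pseudocount of 50 and -0.58 with centred libraries. With no filter its adjusted p was 0.346 (range over the alternatives 0.00144 to 0.346).

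Socs4, Socs5 and Socs7 stayed within the fold threshold at both times. Socs4 (mm9 chromosome 14, plus strand, 47896817 to 47911266) had 107 to 176 tags per 10 M over the 6 RNA-Seq libraries and 30.5 to 53.6 over the 4 GRO-Seq libraries. In RNA-Seq the 1 hr levels (176 in C57BL6/J and 124 in BALBc/J) spanned the untreated ones, while both 4 hr levels (107 and 137) lay below both untreated levels (166 and 153). Socs5 (mm9 chromosome 17, plus strand, 87507018 to 87536925), linked to growth factor receptor turnover, had 182 and 218 tags per 10 M without treatment, 138 and 134 after 1 hr and 96.7 and 128 after 4 hr, in C57BL6/J and BALBc/J. The treated libraries were all below the untreated ones. The fitted 4 hr change of Socs5 was -0.79 ± 0.20 (limma adjusted p = 0.0102), under the fold threshold, and -0.36 (adjusted p = 0.19, range over the alternatives that kept all libraries 0.0094 to 0.19) with libraries centred on the median gene.

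Socs5 was the 1 member of 6 whose 1 hr response was called as different between nascent and polyadenylated RNA, a count near the 13.0% of 8383 genes. Its GRO-Seq levels were 57.7 and 73.1 tags per 10 M in C57BL6/J and 56.5 and 108 in BALBc/J, without treatment and after KLA, while its RNA-Seq levels were lower after 1 hr in both strains. Neither response was called alone (0.56 ± 0.35 in GRO-Seq and -0.52 ± 0.20 in RNA-Seq, limma adjusted p = 0.244 and 0.169). The difference of the responses was 1.08 ± 0.35 (limma adjusted p = 0.0148). It was 0.80 with a pseudocount of 50, under the fold threshold, and lost its adjusted p without a strain term (0.0963, range over the alternatives 0.000122 to 0.249).

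Socs7 (mm9 chromosome 11, plus strand, 97223864 to 97259856) had 138 tags per 10 M without treatment, 110 after 1 hr and 224 after 4 hr in C57BL6/J. In BALBc/J it had 77.0, 48.1 and 202. Both strains were lowest at 1 hr and highest at 4 hr. Between 1 and 4 hr Socs7 rose by 1.42 ± 0.25 (limma adjusted p = 0.0026). Its change from no treatment to 4 hr, 0.97 ± 0.25 (limma adjusted p = 0.0112), was just under the fold threshold and passed it without the C57BL6/J library of 4 hr (1.35) or the untreated C57BL6/J library (1.06), and with centred libraries (1.40). Without the BALBc/J library of 4 hr it was 0.59, and over all left-out libraries it ran from 0.59 to 1.35. GRO-Seq levels of Socs7 were 88.0 to 108 tags per 10 M with overlapping conditions.

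**Figure D2:**
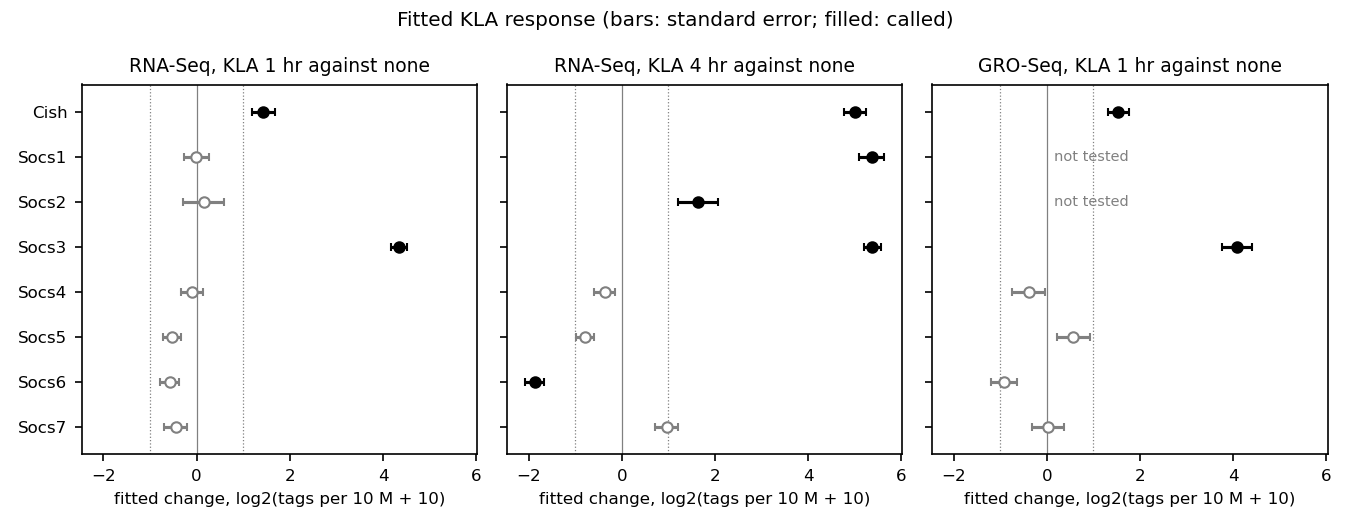
Fitted change with its standard error for each SOCS gene in 3 KLA comparisons, on the log2(tags per 10 M + 10) scale, with filled points for called genes and dotted lines at the fold threshold. Socs3 and Cish are called in all 3 comparisons, Socs1 (5.37), Socs2 (1.63) and Socs6 (-1.87) only at 4 hr, and Socs1 and Socs2 were too low to be tested in GRO-Seq.

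Relative abundance within the family was compared per kb of transcript. Without treatment, Socs6 (112 to 128 tags per 10 M per kb over the strains) and Socs3 (114 to 120) overlapped at the top. Socs4 (71.0 to 76.8), Socs5 (41.4 to 49.6), Socs1 (35.4 to 37.2), Socs7 (11.0 to 19.7), Socs2 (2.65 to 8.66) and Cish (1.64 to 1.93) followed without overlap. After 1 hr Socs3 (2230 to 2660) stood above Socs6 (68.6 to 90.5), and Socs6 overlapped Socs4 (57.4 to 81.5). After 4 hr Socs3 (4580 to 5440), Socs1 (1660 to 2020) and Cish (157 to 259) led without overlap, ahead of Socs4 (49.5 to 63.5). Below Socs4, the ranges of Socs6, Socs7, Socs2 and Socs5 (16.0 to 39.5 in all) overlapped from one to the next. Cish thus moved from the last place to the third, and Socs6 from a shared first place to a shared place below Socs4.

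The strain comparison asks whether the family differs between C57BL6/J and BALBc/J. None of 8 members was called in RNA-Seq, against 3.70% of 10692 genes, and none of 6 in GRO-Seq, against 0.900% of 9110 genes. In the RNA-Seq fit the unadjusted limma p was under 0.05 for Socs7 alone, and in the GRO-Seq fit for 0 of the 6. Socs7 was higher in C57BL6/J in each of the 3 pairs of RNA-Seq libraries, by a fitted 0.65 ± 0.20 (limma adjusted p = 0.0948). A p that misses the threshold does not show that the strains are alike.

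Each member that passed the filter in both assays was matched to the genes with the most similar pattern, by the root mean square distance between log2(tags per 10 M + 10) values centred within each assay, over 10 libraries and 8383 genes. Nearest to Socs3 were Gm14023 (distance 0.19) and Olr1 (0.25), where Socs3 itself spread by 2.22. Nearest to Cish were Mmp13 and Timp1 (both 0.38, spread of Cish 1.71), a collagenase and a metalloproteinase inhibitor. Socs6 was nearest to 2410006H16Rik (0.17) and Snx21 (0.20), with a spread of 0.71. Socs7 was nearest to Cep350 (0.18) and Syne2 (0.20), with a spread of 0.55. Socs4 was nearest to Rabep1 (0.08) and Usp8 (0.09), and Socs5 to Fam129b (0.10) and Pdlim5 (0.12), where the spreads of Socs4 (0.23) and Socs5 (0.34) were small.

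The rest of the pathway was read from 7 lists with 102 genes. Most tested ligands of JAK-STAT receptors rose. Of 22 ligand genes, 14 were tested in RNA-Seq, and after 1 hr 9 rose and 0 fell, with a median change of 1.70 beside -0.21 over all genes. The largest changes were those of Ifnb1 (5.13), Il10 (4.73), Il23a (4.25) and Csf2 (2.57), which encode interferon beta, interleukin 10, the p19 subunit of interleukin 23 and the growth factor GM-CSF. After 4 hr 10 of the 14 ligands rose and 0 fell, led by Il6 (6.43), Il27 (6.15), Il12b (5.61) and Il12a (5.58). Their median was 2.31 beside -0.47 over all genes. In GRO-Seq 8 of 11 ligands rose and 0 fell after 1 hr, led by Lif (4.20), Il12b (3.43), Il23a (2.96) and Clcf1 (1.98). Of these, Clcf1 was under the fold threshold (0.93) with a pseudocount of 50. The share of all genes called was 3.25% at 1 hr and 29.4% at 4 hr in RNA-Seq, and 19.8% in GRO-Seq.

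The receptors called were in both directions. Of 34 receptor genes, 27 were tested in RNA-Seq and 0 were called after 1 hr by limma, where 5 had an unadjusted p under 0.05. After 4 hr 6 rose and 5 fell, where 29.4% of all genes were called (866 higher and 2275 lower). The changes with the largest size were those of Il15ra (5.44), Il6ra (-2.97), Ifngr1 (-2.40) and Il2ra (2.10). Il6ra and Ifngr1 encode receptors whose signals SOCS3 and SOCS1 limit. Il2ra was under the fold threshold (0.79) with a pseudocount of 50. In GRO-Seq 4 of 20 receptors rose and 1 fell after 1 hr. In either direction together this is near the 19.8% of all genes, but of the 9110 genes 393 rose and 1410 fell. The largest were Il6ra (-1.27), Il2rg (1.18), Ifnar2 (1.12) and Il4ra (1.06). Il6ra was at -0.92 with centred libraries and, like Il2rg, Ifnar2 and Il4ra, was under the fold threshold with a pseudocount of 50.

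Of the 4 JAK kinases, Jak2 rose by 3.40 after 4 hr and the other 3 kinases were not called. Of the 7 STAT genes, 6 were tested, and after 4 hr 3 rose and 0 fell, with the largest changes in Stat2 (3.78) and Stat5a (3.16). Beside these counts, 29.4% of all genes were called at 4 hr, a share that 1 of 4 kinases is near. None of the kinases or STAT genes was called by limma in RNA-Seq after 1 hr, where 2 kinases and 3 STAT genes had an unadjusted p under 0.05. In GRO-Seq after 1 hr Jak2 (2.61) and Stat5a (1.17) rose, and Stat5a was under the fold threshold (0.90) with a pseudocount of 50. These counts, 1 of 4 kinases and 1 of 6 STAT genes, are near the 19.8% of all genes called there. Of 13 other inhibitors of the pathway, 2 rose and 2 fell after 4 hr, a count near the 29.4% of all genes and so no result about the list. They were Usp18 (5.51), a brake on interferon receptors, Ptpn2 (1.79), a phosphatase, and the ubiquitin ligases Cblb (-1.50) and Cbl (-1.01). Cbl lost its call without the C57BL6/J library of 4 hr (-0.43) or the untreated C57BL6/J library (-0.85), with centred libraries (-0.58) and with a pseudocount of 50 (-0.75). In GRO-Seq 1 of the 13, Pias2 (-1.13), fell, where 19.8% of all genes were called. Pias2 was at -0.77 with centred libraries and at -0.69 with a pseudocount of 50.

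The machinery shared with SOCS proteins is read against the same 29.4% of all genes called at 4 hr. Of 8 partners of the SOCS box ligase, 1 rose after 4 hr (Ube2f, 1.29; 0.96 with a pseudocount of 50) and 0 fell, with a median of -0.10 beside -0.47 over all genes. Of 14 other SOCS box proteins, 13 were tested, and after 4 hr Spsb1 (1.64) rose while Spsb2 (-2.33) and Spsb4 (-2.12) fell. The median of that list was -0.56, and its count is near that share of all genes. In GRO-Seq after 1 hr Spsb2 (-1.11) fell among 9 tested, where 19.8% of all genes were called. Spsb2 was at -0.76 with centred libraries and at -0.73 with a pseudocount of 50.

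**Figure D3:**
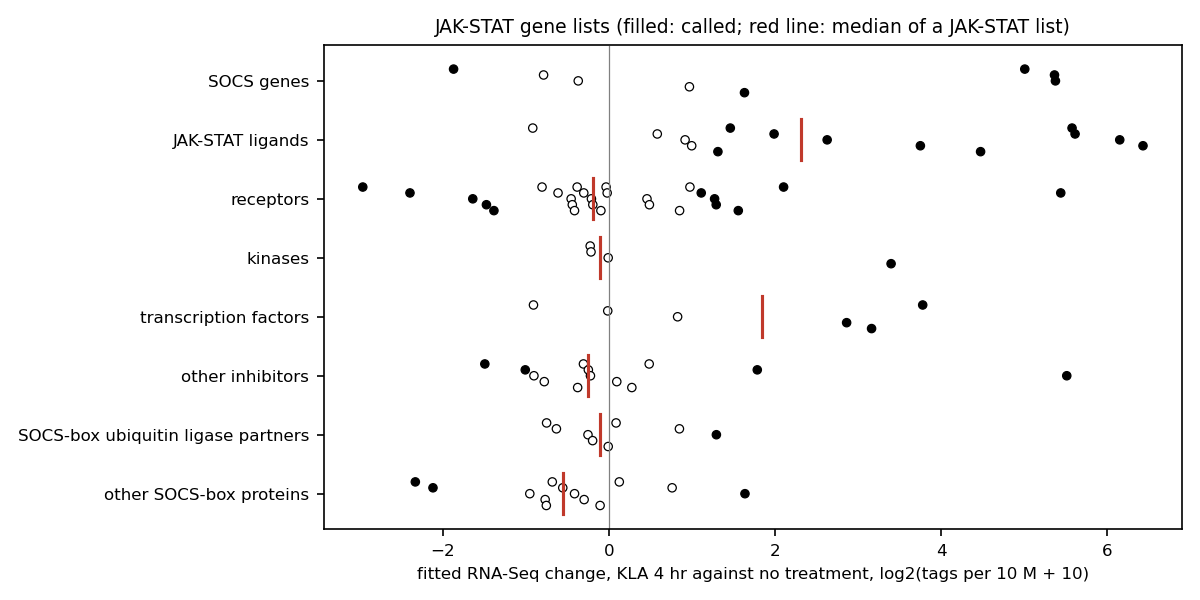
Fitted RNA-Seq change after KLA for 4 hr of each tested gene of the SOCS family and of 7 lists of the JAK-STAT pathway, with filled points for called genes and a red line at the median of each pathway list. The ligands (median 2.31) hold 10 called genes, all higher, while receptors hold 6 higher and 5 lower.

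ChIP-Seq shows the regulatory surroundings of the family. A peak's value is the authors' own tag count per 10 M and is listed only where a peak was called, so peaks are described with no test. Overlapping p65 peaks of the 4 lists after KLA were joined into loci. Within 50 kb of the 8 starts there were 109 p65 loci, of which 42 were called in all 4 lists. Every member had at least 1 of these 42, but so did 87.6% of all genes tested in RNA-Seq. Within 1 kb of the start, 4 of 8 members (Socs3, Socs4, Socs5 and Cish) had such a locus, against 37.1% of all genes. The median gene had 3 loci within 50 kb. Socs3 had 13, more than 98.3% of genes had, and Cish had 8, more than 86.3%. Socs5 and Socs7 had 6 each, those of Socs7 all more than 25 kb away, Socs6 had 4, Socs2 had 3, and Socs1 and Socs4 had 1 each. Distances below are from the transcription start, negative for upstream. The p65 loci within 50 kb, and also within 1 kb, can lie near the starts of other genes. Such starts are those of Pgs1 (-17490 from Socs3), Wdhd1 (-285 from Socs4) and Mrpl45 (-46835 from Socs7). Near Cish they include Mapkapk3 (-6811) and 6430571L13Rik (43951).

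**Figure D4:**
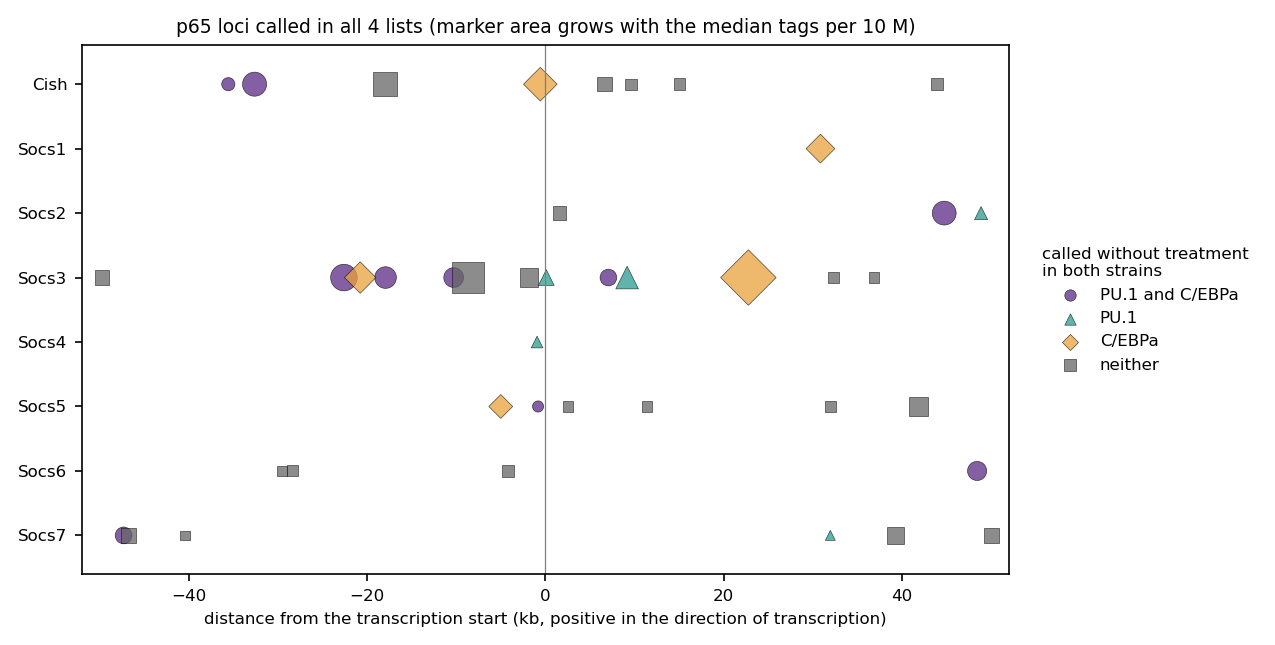
Position (kb from the transcription start) of the 42 p65 loci called in all 4 lists, by gene, with the marker area growing with the median tags per 10 M and the marker shape giving the factors called without treatment in both strains. Socs3 holds 13 loci on both sides of its start, with the strongest at 22783 bases (median 974 tags per 10 M).

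The strongest p65 locus of the family lay 22783 bases downstream of the Socs3 start. It held 928 and 1035 tags per 10 M in C57BL6/J and 997 and 951 in BALBc/J, with overlapping strains and a median above 99.8% of the 36849 such loci of the genome. C/EBPa, a lineage factor of macrophages, was called there at 70.1 and 142 tags per 10 M without treatment and at 368 and 374 after KLA, in C57BL6/J and BALBc/J. H3K27Ac, a mark of active promoters and enhancers, overlapped it with 114 and 108 tags per 10 M before and 1965 and 710 after. PU.1 was called at this locus only in untreated BALBc/J (216 tags per 10 M). The next in strength, at -8647 bases from Socs3, held 608 and 748 tags per 10 M in C57BL6/J and 594 and 645 in BALBc/J. There neither C/EBPa nor H3K27Ac was called without treatment, and both were called in both strains after KLA (C/EBPa at 105 and 154 tags per 10 M). PU.1 was likewise called there only after KLA, at 148 and 167 tags per 10 M in C57BL6/J and BALBc/J. At the Socs3 start itself, a p65 locus at 110 bases held 114 to 200 tags per 10 M.

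Near Cish, the p65 locus at -563 bases held 284 and 325 tags per 10 M in C57BL6/J and 341 and 353 in BALBc/J. C/EBPa was called there at 42.1 and 70.1 tags per 10 M without treatment and at 168 and 180 after KLA. The locus at -17990 bases from Cish differed between the strains in both lists, with 515 and 513 tags per 10 M in C57BL6/J and 195 and 147 in BALBc/J. The locus 41864 bases downstream of the Socs5 start had the opposite order, with 100 and 129 tags per 10 M in C57BL6/J and 282 and 289 in BALBc/J. Over the 42 loci, both C57BL6/J values lay above both BALBc/J values at 17 and below them at 5. Over all p65 loci of the genome called in 4 lists the shares were 39.3% and 5.97%, so the order among the 42 was close to the background in the first direction. Both BALBc/J lists were called against a C57BL6/J input, per the file headers, and its part in these differences was not tested.

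Each of the other members had fewer such loci than Socs3 and Cish. The only p65 locus in 4 lists near Socs1 lay at 30871 bases, with 257 and 209 tags per 10 M in C57BL6/J and 302 and 142 in BALBc/J. Near Socs2 the strongest was at 44758 bases, with 347 and 406 tags per 10 M in C57BL6/J and 323 and 295 in BALBc/J. At -5002 bases from Socs5, C/EBPa was called at 26.1 and 26.3 tags per 10 M without treatment and at 151 and 86.4 after KLA, in C57BL6/J and BALBc/J. The locus of Socs6 at 48449 bases and that of Socs4 at -926 bases held medians of 202 and 50.6 tags per 10 M, the latter under the median of all such loci of the genome (60.4).

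Of the 42 p65 loci, 10 overlapped peaks of both PU.1 and C/EBPa called without treatment in both strains, 5 overlapped PU.1 only, 5 C/EBPa only and 22 neither. Over the 36849 loci of the genome these shares were 26.8%, 17.5%, 13.0% and 42.7%. At 9 of the 42, C/EBPa was called after KLA and not before in both strains (3 near Socs3, 2 near Cish, 2 near Socs7, 1 near Socs2 and 1 near Socs6), against 12.0% of loci of the genome. H3K27Ac was called after KLA and not before in both strains at 9 of the 42, of which 5 were near Socs3, against 6.50% of loci of the genome. Loci near 1 gene can share a stitched H3K27Ac region, so these counts are not of independent sites.

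The summed acetylation called around Socs3 was higher after KLA and that around Socs6 lower. Called H3K27Ac regions within 50 kb of the Socs3 start summed to 1295 tags per 10 M without treatment and 5621 after KLA in C57BL6/J, over 19111 and 52449 covered bases. In BALBc/J they summed to 1030 and 4286, over 16483 and 49246 bases. The ratio was 4.34 in C57BL6/J and 4.16 in BALBc/J. The level per covered kb moved less, from 67.8 to 107 and from 62.5 to 87.0 tags per 10 M. Near Socs6 the sum was 1160 without treatment and 213 after KLA in C57BL6/J, over 15541 and 3439 bases. In BALBc/J it was 882 and 210, over 13617 and 4760 bases. The level per covered kb near Socs6 moved less, from 74.6 to 61.8 tags per 10 M in C57BL6/J and from 64.8 to 44.1 in BALBc/J. The number of called regions near Socs6 was 6 before and 2 after KLA in C57BL6/J, and 5 and 3 in BALBc/J.

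Of the 8 members, 2 (Socs3 and Socs5) had H3K27Ac sums at least 2-fold higher after KLA in both strains, against 4.31% of the 9841 genes with called regions in all 4 lists. Of the 8, 1 member (Socs6) had sums at least 2-fold lower in both strains, against 15.4% of these genes. The median ratio over these genes was 0.73 in C57BL6/J and 0.79 in BALBc/J. Socs5 sums were 142 and 290 tags per 10 M in C57BL6/J, over 2604 and 3967 covered bases, and 113 and 269 in BALBc/J, over 2247 and 4979. The Socs5 level per covered kb was 54.6 and 73.2 in C57BL6/J and 50.2 and 54.0 in BALBc/J. These sums move with how much was called, so a ratio of sums is not a fold change of the level. The ratio of Cish was 1.69 in C57BL6/J and 1.04 in BALBc/J, and those of Socs1 (1.17 and 0.65) and Socs2 (2.29 and 0.36) differed in direction between the strains. Socs4 had ratios of 1.48 and 1.36, and Socs7 of 1.65 and 1.01. There is 1 list per strain and treatment, so these ratios have no replicate check.

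**Figure D5:**
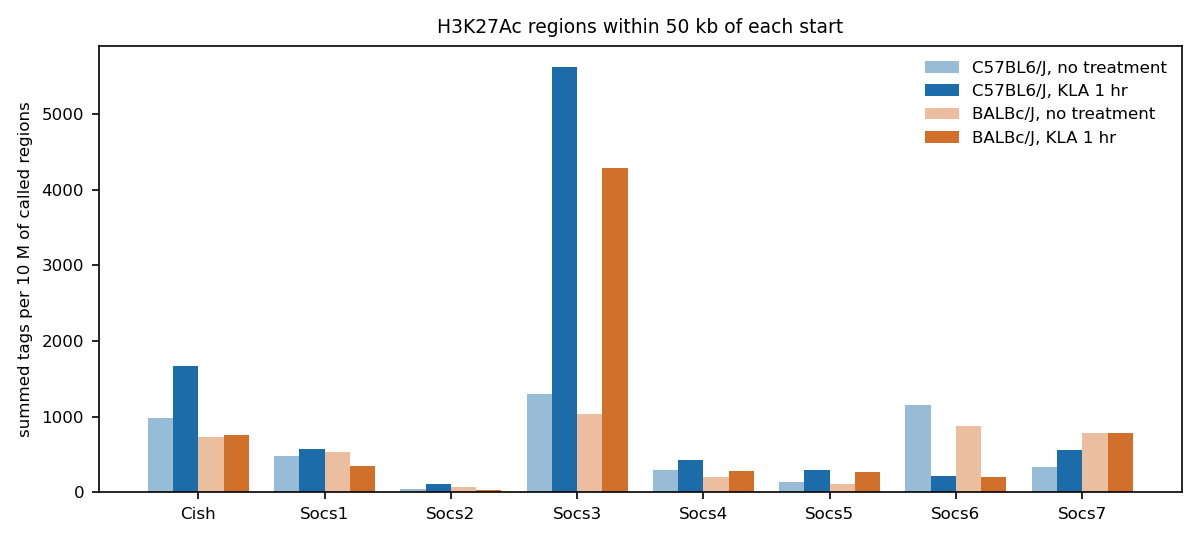
Summed H3K27Ac tags per 10 M of all called regions within 50 kb of each start, by strain (colour) and treatment (pale without, full after KLA for 1 hr), 1 list per bar. Socs3 bars are the tallest after KLA (5621 and 4286), and Socs6 bars fall to 213 and 210.

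At the starts themselves (within 1 kb), the H3K27Ac region of Cish was not called without treatment in C57BL6/J and held 38.5 tags per 10 M in BALBc/J. After KLA it held 381 and 363. The region over the Socs6 start held 451 and 315 tags per 10 M before and 204 and 170 after KLA, in C57BL6/J and BALBc/J. That of Socs1 held 167 and 181 before and 249 and 209 after. The region over the Socs3 start went from 198 to 773 tags per 10 M in C57BL6/J (1935 and 7331 bases wide) and from 86.4 to 1582 in BALBc/J (2144 and 15273 bases wide). Its level per covered kb went from 102.1 to 105.4 in C57BL6/J and from 40.3 to 103.6 in BALBc/J. For the Socs1 region this level went from 102.5 to 110.4 and from 90.6 to 108.0. H3K4me2, which marks promoters and enhancers whether or not they are active, was called at all 8 starts in all 4 lists. Its sums within 50 kb were 4314 and 4661 tags per 10 M before and 4217 and 5080 after KLA for Socs3, and 3865 and 3797 before and 4504 and 3775 after for Socs6. PU.1 peaks within 50 kb of Socs6 numbered 12 and 11 before and 4 and 7 after KLA, in C57BL6/J and BALBc/J. Those near Socs3 numbered 19 and 20 before and 20 and 25 after. Near Cish they went from 12 and 10 to 18 and 15, and near Socs5 from 5 and 6 to 9 and 10. Near Socs1 they went from 11 and 13 to 13 and 13, and near Socs2 from 6 and 5 to 5 and 7. Near Socs4 they went from 6 and 5 to 6 and 6, and near Socs7 from 7 and 13 to 8 and 13. How these counts moved over all genes was not examined.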

How the data were processed

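Reads were aligned with Bowtie 0.12.7 to mm9 and processed with HOMER, per the submitters' processing notes. The authors deposited expression as log2 values (of 1 plus a library's exon tags scaled to 10 M), per the file headers. On the linear scale these are whole tags plus a random part under 1 tag, and whole tags were recovered. No expression column was left without a sample. Peaks were deposited by the authors as lists with a tag signal per 10 M, called per library against input with HOMER, per the file headers. The headers of the p65 lists name tag directories numbered rep2 and rep3 where the labels say replicates 1 and 2. Whether counting used strand is not stated in the labels or headers. No member overlaps another gene in the table.

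The test was limma's (version 3.58.1, R 4.3.3), with a mean-variance trend, for genes that 2 or more libraries of an assay showed at 20 tags per 10 M. The response was log2(tags per 10 M + 10), with additive treatment and strain terms and p-values adjusted by Benjamini-Hochberg over all genes. RNA-Seq left 2 residual degrees of freedom, GRO-Seq 1 and the model over both assays 2. The fit was run on simulated counts with no strain effect, which checks the code and not the calls in these data. Tables were made in Python 3.11.15 with scipy 1.17.1, which gave the counting intervals. Peaks count when they overlap the window around a start, and share a locus when they overlap by at least 1 base. Text names all members, and of each pathway list up to 4 called genes with the largest change, plus called kinases and STAT genes, of which 1 is not reported here. Members and lists were chosen with earlier results of these data known. Of the 40 samples, 30 were used. The other 10 (input DNA and other mice) were not analysed here.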

Additional observations from a re-analysis of the deposited data

Results flagged for a closer look

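Socs5 was called as responding differently to KLA for 1 hr in nascent and polyadenylated RNA, a call lost in 3 of 9 alternatives. The test took its spread from all genes together. The GRO-Seq minus RNA-Seq difference of its responses was 1.08 on the log2 scale, by the interaction test in limma (adjusted p = 0.0148, range over the alternatives 0.000122 to 0.249). GRO-Seq was higher after KLA in 2 of 2 strains and RNA-Seq lower in 2 of 2.

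In 4 cases the strains moved in opposite directions, with 1 library per strain and condition, so these differences were not tested. For Socs1 in RNA-Seq after 1 hr, the response of C57BL6/J minus that of BALBc/J was -0.87. For Socs4 in RNA-Seq it was 0.37 after 1 hr and -0.81 between 1 and 4 hr. For Socs7 in GRO-Seq after 1 hr it was -0.41.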

How the results depend on the processing

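Of 848 values of members and pathway genes under the alternatives, 783 kept their direction and their side of the threshold, 60 lost the call, 5 gained one and 0 reversed. The 848 values cover 66 pairs of a gene and a comparison, mostly ones that the text names. Other pairs were left out, such as Socs1 after 1 hr in RNA-Seq (-0.005), so these counts, also that of reversals, do not cover them. Members called after 1 hr in RNA-Seq (2) numbered 0 with no filter on low values, 1 with no strain term, 1 with a pseudocount of 50 and 1 to 2 with 1 library left out. Members called between 1 and 4 hr (6) numbered 2 with no filter, and 5 to 6 with 1 library left out. In GRO-Seq (2) they numbered 0 with no filter, 1 with a filter of 50 tags per 10 M, which Cish did not pass, and 1 with a pseudocount of 50. For the difference between assays (1) they numbered 0 with no filter, 0 with a pseudocount of 50 and 0 with no strain term. Without the filter 22865 genes enter and the prior degrees of freedom of RNA-Seq were 0.67 in place of 5.94. With 1 library left out, RNA-Seq kept 1 residual degree of freedom and the prior was 6369 or infinite. Calls in those fits thus borrow their spread from all genes together and are not on a par with the main calls. The deposited values with their random part, an alternative chosen after seeing the data, changed no call of a member.

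The 42 p65 loci became 22 within 25 kb, 77 within 100 kb, 23 among peaks of at least 2 times the median of their list, 41 under the stricter overlap rule (0.5 of the shorter peak), and 54 to 74 with 1 replicate of each strain left out.

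Calls over all genes (main count first) with no filter were 348 and 4 (RNA-Seq, 1 hr), 3141 and 1731 (4 hr), 2373 and 936 (4 against 1 hr), 1803 and 0 (GRO-Seq), 396 and 0 (strain, RNA-Seq), 82 and 0 (strain, GRO-Seq) and 1091 and 13 (GRO-Seq minus RNA-Seq). With a pseudocount of 50 they were 202, 1966, 1516, 551, 170, 26 and 377. With no strain term 178 were called at 1 hr and 446 between the assays. Other counts moved by over 1.5 times only in GRO-Seq with a filter of 50 tags (37 strain calls) and in RNA-Seq after 1 hr without the C57BL6/J library of 1 hr (800 calls).

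Centring the libraries changed the higher and lower calls from 195 and 153 to 241 and 78 (RNA-Seq, 1 hr), from 866 and 2275 to 1248 and 1041 (4 hr), from 927 and 1446 to 1171 and 962 (4 against 1 hr), from 393 and 1410 to 618 and 645 (GRO-Seq), from 127 and 269 to 166 and 217 (strain, RNA-Seq), from 38 and 44 to 87 and 28 (strain, GRO-Seq) and from 369 and 722 to 493 and 530 (GRO-Seq minus RNA-Seq). The cause of these changes was not tested.

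No paired analysis was possible because the only groups that share replicate numbers are the p65 lists, whose values come from no test. Leaving out a GRO-Seq library leaves no residual degrees of freedom and was not run. Low GRO-Seq counts limit Socs1 and Socs2, and 1 list per condition limits the histone marks.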
